A study of Homo sapiens with 42 samples.

Results

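The inner region was the 250 kb of human chromosome 9 from 111.45 to 111.7 Mb (hg19), which holds 2 of the study's 3 contact viewpoints, Proximal at position 111624875 and Distal at position 111525048. Its members were the 25 windows of 10 kb in that interval and every contact listed there, leaving out contacts within 20 kb of a library's own viewpoint. Of these windows 20 could be measured from Proximal, 20 from Distal and 25 from Outside, the third viewpoint at position 111110106, out of 394 local windows per viewpoint and 1182 in all. The region held 72065 of the 686700 listed contacts. The interval was chosen to hold both inner viewpoints and the genes ACTL7B and ACTL7A, and it runs from 75.0 kb below Distal to 75.1 kb above Proximal. Both inner viewpoints are labelled as lying inside a fountain, but no label places the fountain's base. The stretch is therefore called the inner region here. For S phase against G1 no region window passed from any viewpoint, where 3.28% of all Proximal, 8% of Distal and 0.546% of Outside windows did. With all contacts as the library size, 6 Distal and 1 Proximal region windows passed.

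The cells were K562, an established line of chronic myeloid leukemia, carrying the FUCCI cell-cycle reporter at the AAVS1 locus; all groups share this genotype, and whether the line is 1 clone is not stated in the sources used here. An asynchronous culture was stained with the DNA dye Hoechst33342 and sorted into G1 and the S-phase fractions S1 to S6, then fixed, cut with DpnII and ligated in situ. Each of the 21 groups, 3 viewpoints by 7 fractions, had 2 libraries, 42 in all; no label says whether the 2 are separate cultures, and the p-values below reflect the spread between libraries only, which may be technical. S1 to S3 are called early S and S4 to S6 late S below, in the order of their names.

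A fountain is a pattern of contact maps in which contacts spread out on both sides from a focal site, so that stretches flanking that site touch each other more often. In a viewpoint assay such as this, a primer next to 1 cutting site reads out every fragment that was ligated to it, and contact frequency falls with distance from the viewpoint in any fraction of the cell cycle. DpnII cuts at GATC, so that a contact can be read only next to such a site. ACTL7A and ACTL7B are neighbouring intronless genes of testis-expressed actin-like proteins. Gene coordinates of hg19 were not used here.

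The promoters of both actin-like genes are shown because both genes were named in choosing the region, and the capitals mark the DpnII site at which a contact could be read. They are RefSeq's, on GRCh38.p14, from 250 bases before to 50 bases after the start, 5′ to 3′ on the gene's strand. ACTL7B lies on the minus strand at chr9:108855937-108856236 of that build and ACTL7A on the plus strand at chr9:108862016-108862315.
ACTL7B: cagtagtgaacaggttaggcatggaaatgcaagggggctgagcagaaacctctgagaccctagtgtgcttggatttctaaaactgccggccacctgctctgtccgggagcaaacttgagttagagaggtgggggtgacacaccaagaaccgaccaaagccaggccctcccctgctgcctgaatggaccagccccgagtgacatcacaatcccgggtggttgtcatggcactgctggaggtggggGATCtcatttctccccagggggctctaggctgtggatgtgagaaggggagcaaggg
ACTL7A: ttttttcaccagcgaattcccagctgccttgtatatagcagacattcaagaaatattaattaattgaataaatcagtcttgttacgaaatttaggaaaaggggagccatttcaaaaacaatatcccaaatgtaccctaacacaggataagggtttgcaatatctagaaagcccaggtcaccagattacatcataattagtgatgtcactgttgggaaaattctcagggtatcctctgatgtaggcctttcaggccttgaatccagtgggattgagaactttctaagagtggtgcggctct
The ACTL7B promoter held 1 GATC, starting at base 245 of the sequence shown, and the ACTL7A promoter none. GATC reads the same on both strands, and 41.7% of RefSeq's 35116 promoters of this length held it.

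Every library listed 16350 contacts, of which 6149 to 10957 were local, that is, at a distance from the viewpoint of over 20 kb and up to 2 Mb. Inside the region a library listed 1765 to 2399 contacts from Proximal, 1969 to 2726 from Distal and 541 to 774 from Outside. A position may be listed several times, and 36.2% to 72.0% of a library's lines repeated one. The lists were thus of 1 size, but the number of local contacts differed between fractions: from Proximal it averaged 6205 in G1 and 8843.5 in S4, from Distal 8355 and 10885, and from Outside 8697.5 and 10640. All shares and levels below are relative to local contacts, and for the shares, early against late S is also given relative to all contacts.

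Between early and late S, the region's share of local contacts fell from both inner viewpoints, and from Outside no fall was measured. Relative to all contacts neither fall passed (exact permutation, adjusted p = 0.107 for both). Whether the inner viewpoints differed from Outside in these shares was not tested. The region took 28.1% of Proximal's local contacts in early S and 25.02% in late S, 25.4% and 21.2% of Distal's, and 6.62% and 6.61% of Outside's. All S fractions and G1 were not told apart from either inner viewpoint, by a test that no measure alone could pass after adjustment.

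From Proximal, the region's share in the 2 libraries of each fraction was 28.7% and 31.0% in G1, 28.8% and 30.2% in S1, 27.2% and 29.1% in S2, 25.9% and 27.5% in S3, 25.4% and 26.6% in S4, 24.1% and 24.9% in S5, and 22.6% and 26.6% in S6. The second G1 and S1 libraries were the highest and 3 of the 4 S5 and S6 libraries the lowest, and the early and late libraries overlapped, since the lowest S3 library lay below the highest late ones. Early S exceeded late S by 3.10 percentage points (6 against 6 libraries, two-sided exact permutation test, p = 0.00866; Benjamini-Hochberg adjusted over the 19 share measures, 0.0235). S against G1 gave a difference of -3.31 points (exact permutation p = 0.0769, adjusted 0.365); with 12 against 2 libraries no p below 0.011 is possible. Over the 7 fractions the permutation test of F gave an adjusted p of 0.0716, and without Proximal S6 replicate 2, the highest of the S5 and S6 libraries, 0.0221.

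From Distal, the region's share was 24.3% and 23.7% in G1, 24.4% and 25.6% in S1, 24.6% and 27.1% in S2, 24.6% and 25.8% in S3, 22.9% and 23.6% in S4, 20.1% and 21.4% in S5, and 19.3% and 19.8% in S6. All 6 early libraries lay above all 6 late ones, and every S5 and S6 library lay below G1. The difference between early and late S was 4.19 points (exact permutation p = 0.00216, the smallest that 6 against 6 libraries allow; adjusted 0.0103). S against G1 differed by -0.73 points (exact permutation p = 0.769, adjusted 0.812). The 7 fractions differed (permutation test of F, adjusted p = 0.0164).

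From Outside, the region's share ranged from 5.97% in an S5 library to 7.29% in an S4 library, with both G1 libraries close together at 6.25% and 6.20%. Early and late libraries overlapped throughout. The difference between early and late S was 0.00654 points (exact permutation p = 0.976, adjusted 0.976), and that between S and G1 was 0.388 points (exact permutation p = 0.165, adjusted 0.477).

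**Figure D1:**
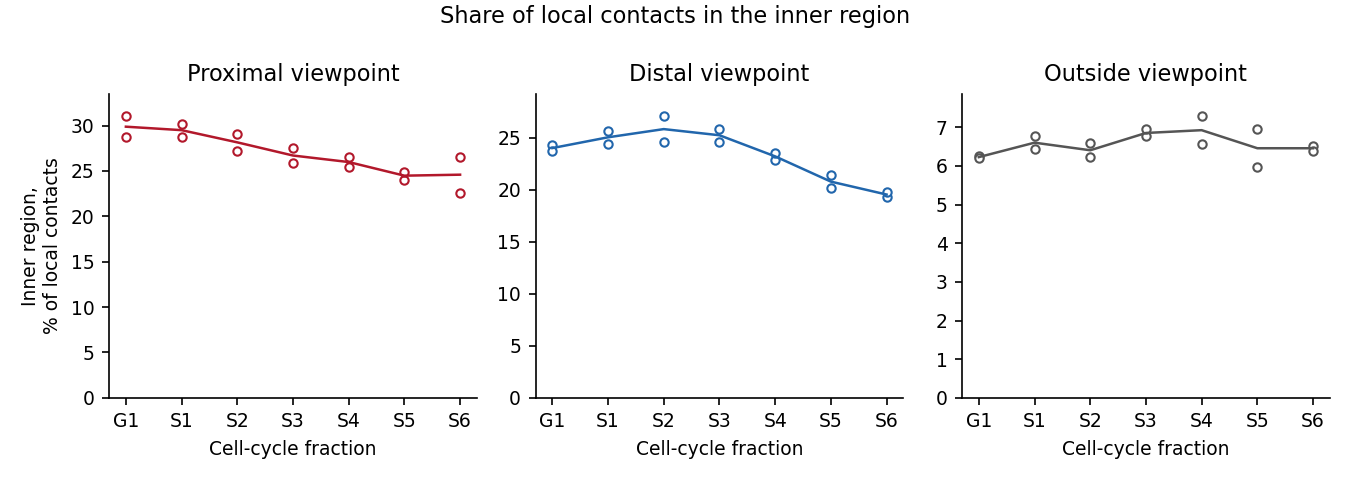
Share of local contacts that lay in the inner region (y axis, percent, starting at 0) for each sorted fraction (x axis), with 1 panel per viewpoint; circles are the 2 libraries of a fraction and lines join their means. The Distal share runs from 25.8% in S2 to 19.5% in S6, the Proximal share from 29.9% in G1 to 24.5% in S5, and the Outside share stays between 6.23% and 6.92%.

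The choice of denominator bears on these calls. Relative to all listed contacts outside 20 kb, the region's share from Distal was 14.7% ± 0.495 (SD, n = 2) in G1, 19.6% ± 0.930 in S3 and 14.7% ± 0.249 in S6, and from Proximal 17.5% ± 1.11, 20.1% ± 1.32 and 17.6% ± 2.15. On this scale the Distal mean was highest in S3 and the Proximal mean in S2, at 20.1%, and from both inner viewpoints the means of G1 and S6 differed by less than the SD within G1. Early S exceeded late S by 2.11 points from Distal and by 1.58 from Proximal, and neither passed (exact permutation, adjusted p = 0.107 for both). From Outside the same share was 3.93% and 3.96% in the G1 libraries and 4.43% to 5.67% in the 12 S libraries, with no overlap (exact permutation p = 0.011, the smallest possible, adjusted 0.104).

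The region was split into 5 stretches of 50 kb, and whether these differed from each other was not tested. The stretch between the viewpoints, from 111.55 to 111.6 Mb, took 7.89% of Distal's local contacts in early and 6.47% in late S (adjusted p = 0.0206, exact permutation test) and 9.19% and 7.90% of Proximal's (adjusted p = 0.0103, exact permutation test). From Proximal all early libraries lay above all late ones there, from 8.67% to 9.71% against 7.18% to 8.26%. Over all S fractions the Proximal share of this stretch was 8.55%, against 10.1% in G1 (exact permutation p = 0.033, adjusted 0.278).

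From each inner viewpoint the share of the stretch that holds the other one also fell. Distal's contact with the stretch from 111.6 to 111.65 Mb, which holds the Proximal viewpoint, averaged 3.82% in G1. The early fractions S1 to S3 averaged 4.56%, 4.70% and 4.32%, and the late fractions S4 to S6 3.92%, 3.64% and 3.38%. Its early libraries, 4.29% to 4.89%, all lay above its late ones, 3.29% to 4.05% (exact permutation, adjusted p = 0.0103). Proximal's contact with the stretch from 111.5 to 111.55 Mb, which holds the Distal viewpoint, fell from 4.40% in early to 3.83% in late S (exact permutation, adjusted p = 0.0336), a call lost without any of 6 libraries (Proximal S1 replicates 1 and 2, S2 replicate 1, S5 replicate 2, and S6 replicates 1 and 2), with an adjusted p of up to 0.0651.

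Below the Distal viewpoint, from 111.45 to 111.5 Mb, the share from Distal was 8.40% to 9.53% in early and 6.42% to 8.34% in late libraries, again without overlap (exact permutation, adjusted p = 0.0103). From Proximal, which lies farther off, the same stretch took 2.55% in G1, 3.26% in S3 and 2.22% in S6; early S exceeded late S by 0.536 points (exact permutation, adjusted p = 0.0377), with a call lost when any of 9 libraries was left out (Proximal S1 replicate 1 and both replicates of S2, S3, S5 and S6; adjusted p up to 0.0788). Above the Proximal viewpoint, from 111.65 to 111.7 Mb, early and late S were not told apart from Proximal (8.08% and 7.86%, exact permutation, adjusted p = 0.717) or from Distal (1.82% and 1.57%, adjusted p = 0.177). From Distal the 7 fractions did differ there (permutation test of F, adjusted p = 0.00057). The Distal mean was 1.77% in G1, highest in S3 at 2.07% and lowest in S6 at 1.32%.

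From Outside, 2 stretches moved the other way. Its contact with the stretch that holds the Proximal viewpoint was 0.707% in G1, 0.852% in early and 0.961% in late S (early against late, exact permutation, adjusted p = 0.0336); without Outside S2 replicate 1 or 2, S5 replicate 1 or S6 replicate 2 the adjusted p was above 0.05, up to 0.0617. All 12 S libraries, at 0.738% or more, lay above both G1 libraries, at most 0.734%, although the adjusted p of S against G1 was 0.209 (exact permutation p = 0.011). The stretch above it took 0.319% in early and 0.423% in late S (exact permutation, adjusted p = 0.0165), and these values rest on 27 to 50 contacts per library. In G1 the 2 libraries of this last stretch stood at 0.530% and 0.321%, farther apart than the means of early and late S. The stretch that holds the Distal viewpoint passed from Outside only without S4 replicate 2, where early S was higher by 0.192 points (exact permutation, adjusted p = 0.0336) against 0.0971 with it.

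**Figure D2:**
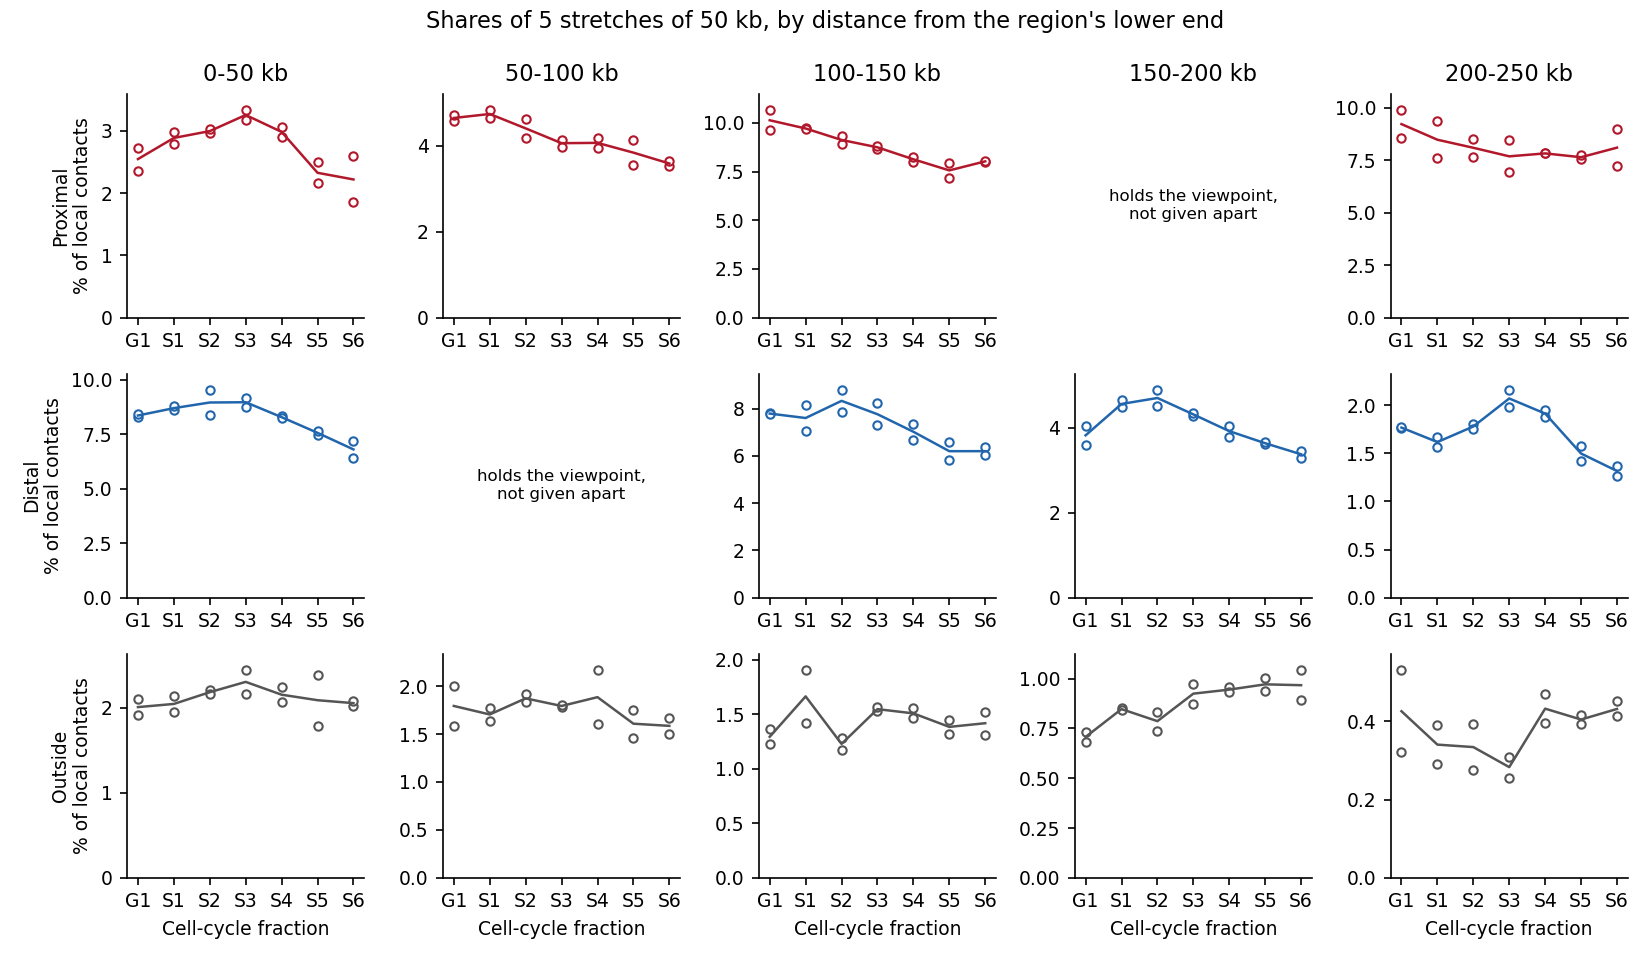
Share of local contacts (y axis, percent, each panel with its own scale from 0) in 5 stretches of 50 kb (columns, by distance from the region's lower end) for each fraction (x axis) and viewpoint (rows); circles are libraries and lines join the means. From Distal the stretch at 150 to 200 kb, which holds the Proximal viewpoint, is highest in S2 at 4.70% and lowest in S6 at 3.38%.

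Relative to all contacts, 3 of these 8 stretch calls between early and late S remained by the exact permutation test: Distal to the stretch around Proximal at 0.476 points, Proximal to the stretch between the viewpoints at 0.72, and Outside to the stretch above Proximal at -0.0843 (adjusted p = 0.0411 each). The other 5 kept their direction but did not pass. From Distal the difference was then 0.755 points between the viewpoints (adjusted p = 0.107) and 0.631 below Distal (adjusted p = 0.182), both by exact permutation. From Proximal it was 0.304 around Distal (adjusted p = 0.107) and 0.32 below it (adjusted p = 0.182), and from Outside -0.0972 around Proximal (adjusted p = 0.0754), again by exact permutation.

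Of the 19 share measures, which count the region, its stretches and a ratio to the opposite side, 12 passed for early against late S, 10 of them higher in early S and 2 lower. The measures overlap, since stretches are parts of the region and the ratios use the same contacts, so these are not 12 separate results. None of the 19 passed for S against G1, where 3 had an unadjusted exact permutation p below 0.05. No p below 0.011 was possible there. The measure at that floor had an adjusted p of 0.209 by the same test, so no measure could pass alone. Over the 7 fractions 6 passed. The count of stretches among the last, 5, became 3 without Distal S5 replicate 1 or Distal S6 replicate 1.

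The ratio to the opposite side compared contacts in the region, or part of it, with those at the same distances on the viewpoint's other side. Both came from the same library, so that the denominator drops out. A change of this ratio can come from either side. For Proximal and Distal the part of the region facing the other inner viewpoint was used, and for Outside the whole region. For Proximal and Distal the opposite side also holds part of the region, so this ratio does not set the region against its outside. In Proximal G1 replicate 1 the region's stretch above Proximal gave 526 of the opposite side's 1036 contacts. In Distal G1 replicate 1 its stretch below Distal gave 698 of 1596. From Proximal the log2 ratio was 0.14 and 0.03 in G1, 0.18 and 0.04 in S1, 0.15 and 0.13 in S2, 0.25 and 0.00 in S3, -0.03 and 0.11 in S4, -0.13 and -0.19 in S5, and -0.06 and -0.16 in S6. The side that faces Distal was thus the stronger one up to S3 and the weaker one in S5 and S6, and early S exceeded late S by 0.20 (exact permutation, adjusted p = 0.0257). That side held 1145 and 1199 contacts in G1, 1501 and 1494 in S3, and 1210 and 1283 in S5. The opposite side held 1036 and 1176 in G1, 1261 and 1491 in S3, and 1323 and 1460 in S5.

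From Distal the log2 ratio was below 0 in all 14 libraries: the side that faces Proximal had fewer contacts than the opposite side, with a mean of -0.39 in G1, -0.44 in early and -0.58 in late S. Early S exceeded late S by 0.14 (exact permutation, adjusted p = 0.0336); the adjusted p rose above 0.05, up to 0.0651, without any of 6 libraries (Distal S1 replicate 2, S2 replicates 1 and 2, S3 replicate 2, S4 replicate 1 or S5 replicate 1). From Outside the ratio was -0.76 in early and -0.74 in late S (exact permutation, adjusted p = 0.88). This ratio did not separate S from G1 for any viewpoint, with exact permutation p-values from 0.176 to 0.659 before adjustment.

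**Figure D3:**
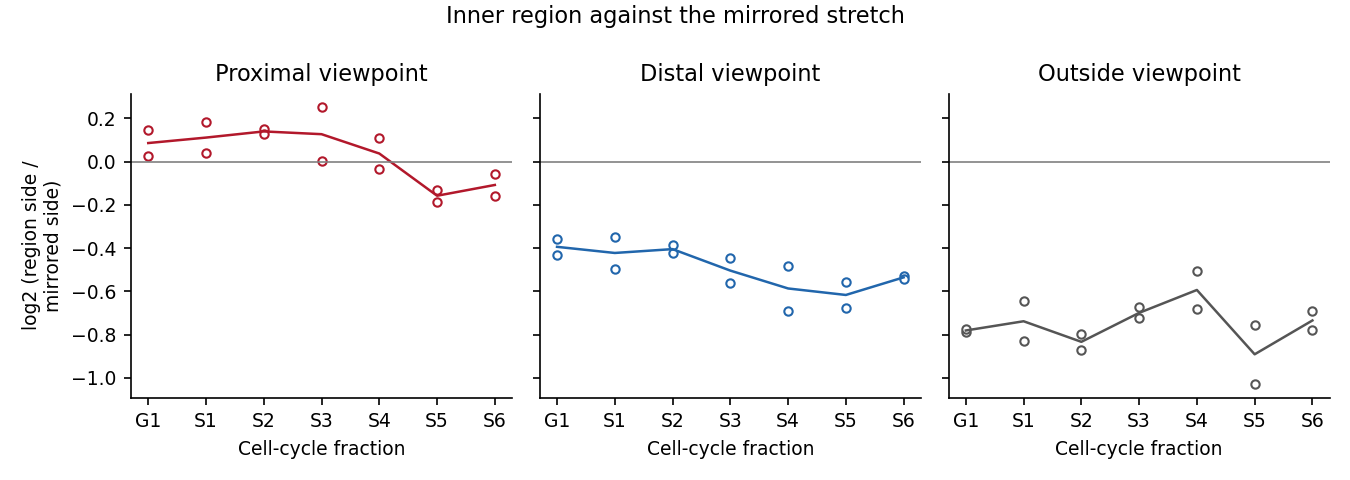
Log2 ratio of inner-region contacts to contacts at the same distances on the opposite side of the viewpoint (y axis) for each fraction (x axis). For Proximal and Distal only the part facing the other inner viewpoint counts as the region, and the opposite side holds another part of it. Circles are libraries, lines join their means, and the grey line marks equal contact. Proximal moves from a mean of 0.14 in S2 to -0.16 in S5, while Distal and Outside lie below 0 in all libraries.

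At 10 kb, the level of a window is given as contacts per 10000 local contacts of its library. From Proximal the windows ran in G1 from 26.7 ± 10.6 (SD, n = 2) at chr9:111470001-111480000, about 150 kb from the viewpoint, to 379 ± 33.9 in the window from 111.65 Mb, centred 30.1 kb above it. From Distal they ran from 19.1 ± 6.62 at chr9:111670001-111680000 to 262 ± 24.0 in the window starting at 111490001, centred 30.05 kb below the viewpoint. From Outside, which lies 340 to 590 kb away, they ran from 3.46 ± 3.27 at chr9:111680001-111690000 to 55.8 ± 12.4 in the window starting at 111490001.

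The fall with distance was not even, and some windows stood above both neighbours from more than 1 viewpoint. The window starting at 111490001 did so in 13 of 14 Proximal and 13 of 14 Outside libraries, with an Outside median of 63.0 per 10000 against 26.3 just below it and 32.0 just above it. The window chr9:111630001-111640000, next to the Proximal viewpoint, stood above both neighbours in 12 of 14 Distal libraries, with a median of 110 per 10000 against 66.6 and 55.1. From both inner viewpoints chr9:111570001-111580000, between them, was such a window, in 14 of 14 Distal and 11 of 14 Proximal libraries. These windows also held many places at which contacts were read. They had 32, 35 and 38 clusters of positions, ranking 9, 4 and 1 of the 25 windows. Clusters were counted from the contacts themselves, so a window with more contacts can show more of them. With 37 clusters, the window at 111460001 ranked 2, but it stood above both neighbours in at most 7 of any viewpoint's 14 libraries. Whether the number of readable sites has a part in these peaks was not tested.

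**Figure D4:**
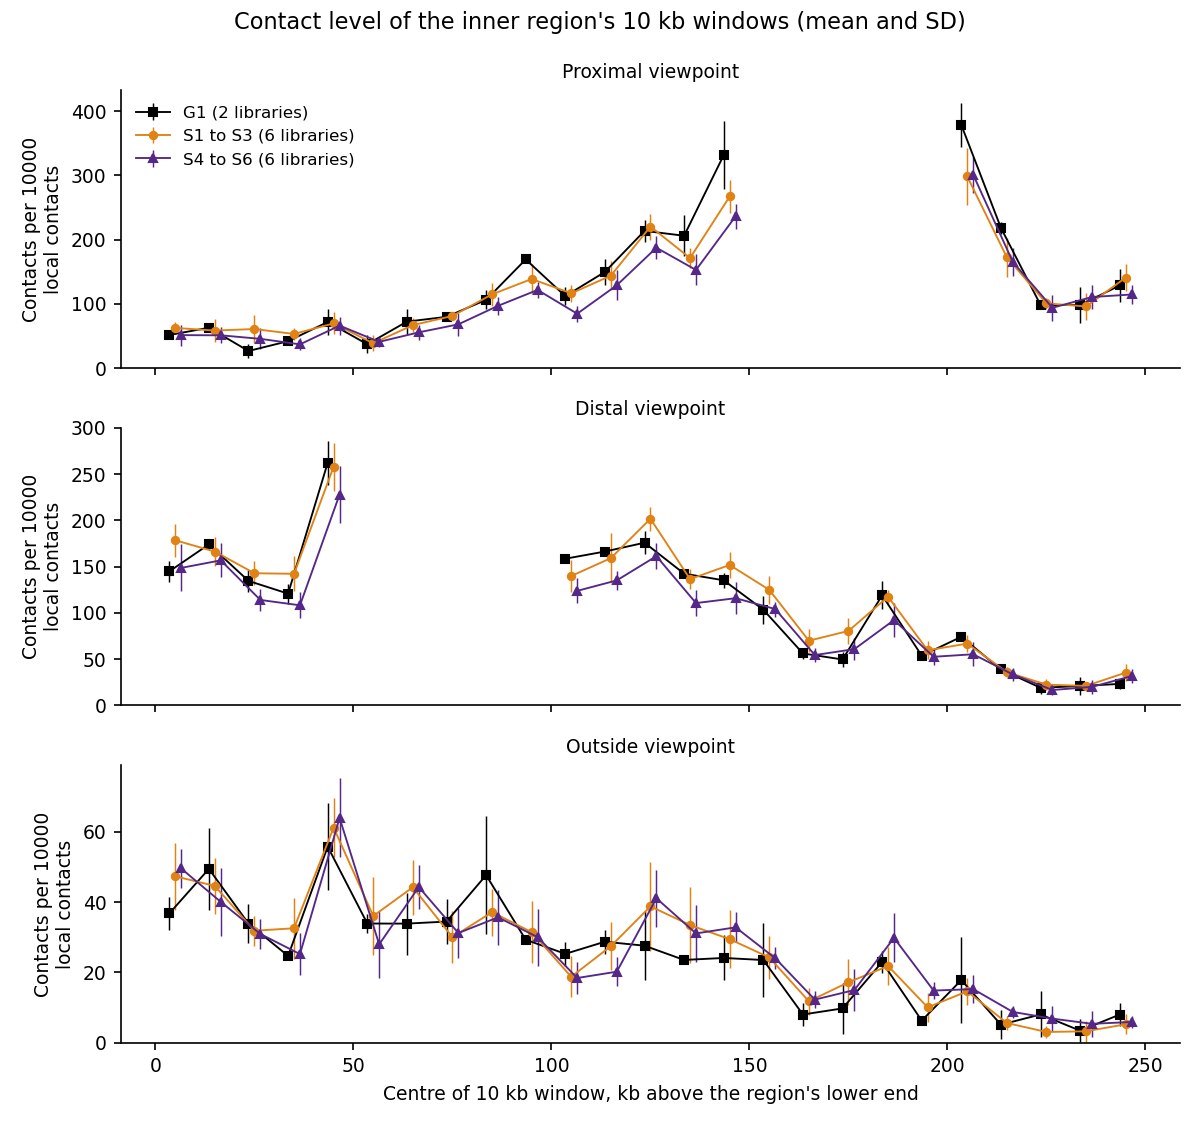
Contact level of the 10 kb windows of the inner region (y axis, contacts per 10000 local contacts, from 0, own scale per panel) against the window's distance from the region's lower end (x axis, kb), as mean and SD of the G1, early S and late S libraries; windows near the own viewpoint are missing. From Distal the early S means lie above the late S means in all 20 windows.

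Each window was tested among all local windows of its viewpoint with a mean of at least 10 contacts per library, 183 for Proximal, 250 for Distal and 183 for Outside. All 20 region windows of both inner viewpoints were tested and 21 of 25 from Outside, since 4 were too low; a call is an adjusted p below 0.05 in limma, adjusted over all local windows of that viewpoint. For S against G1, limma called no region window from Proximal, Distal or Outside, where 6, 3 and 0 had an unadjusted p below 0.05 and the quasi-Poisson model also called none. Among all windows tested the same contrast called 3.28% from Proximal, 8% from Distal and 0.546% from Outside. The median log2 change of the region's windows was -0.10 from Proximal, -0.02 from Distal and 0.12 from Outside, against -0.03, -0.01 and 0.03 over all windows.

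This contrast depends on the scale. Taking all contacts as the library size raised the median log2 change of all windows by 0.38 for Proximal, 0.29 for Distal and 0.24 for Outside, and all 64 Distal calls were then higher in S, where on local contacts 17 were higher and 3 lower. On that scale 6 of the 20 Distal region windows were called, all higher in S, and 1 of the 20 Proximal ones. The region's median less the median of all windows was then -0.05 for Proximal, 0.01 for Distal and 0.09 for Outside, where local contacts gave -0.07, -0.00439 and 0.09.

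For early against late S, 9 of the 20 Distal region windows passed, all higher in early S, where 14% of all Distal windows passed in either direction. The log2 change was above 0 in 20 of 20 windows, with a median of 0.28 against 0.02 over all Distal windows. From Proximal none passed, as was the case for all its windows (0%); the change was above 0 in 17 of 20 region windows, with a median of 0.18 against 0.00, and 4 had an unadjusted p below 0.05. From Outside none passed either, again as for all its windows (0%), with 10 of 21 changes above 0, a median of -0.01 and no unadjusted p below 0.05. The quasi-Poisson model called none from these 2 viewpoints and fewer than 9 from Distal. Limma with a single prior spread for all windows called none from Distal. With all contacts as the library size 3 of the Distal region windows passed, and over all Distal windows 4 calls were higher and 29 lower in early S, where local contacts gave 13 and 22.

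The Distal window with the lowest adjusted p started at 111590001, between the viewpoints and centred 69.95 kb above Distal. It held 130 and 141 contacts per 10000 in G1, 135 to 178 in early S and 95.0 to 134 in late S. The early and late libraries did not overlap, although the lowest early value lay close to the highest late one, and 1 G1 library lay in each range. The log2 change of early over late S was 0.39 ± 0.09 (SE; limma, adjusted p = 0.00156).

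Nearer to Distal, chr9:111570001-111580000 had 185 and 167 per 10000 in G1, 187 to 221 in early S and 148 to 187 in late S. Again no late library reached the lowest early one. The log2 change was 0.32 ± 0.08 (limma, adjusted p = 0.00203). The window in their middle, chr9:111580001-111590000, behaved alike in early against late S, from 126 to 151 against 84.3 to 125 per 10000 without overlap (log2 change 0.31 ± 0.10, limma, adjusted p = 0.0173), but its G1 libraries, at 140 and 144, stood with the early ones.

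Below the Distal viewpoint 4 windows passed. The window chr9:111480001-111490000 had 129 and 113 per 10000 in G1, 125 to 175 in early S and 93.2 to 133 in late S, and its log2 change was 0.39 ± 0.10 (limma, adjusted p = 0.00203). Here the ranges of early and late S overlapped. Those starting at 111470001, at the region's lower end and at 111490001 changed by 0.32, 0.27 and 0.18, with adjusted p-values from limma of 0.0105, 0.0164 and 0.0467.

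The window that holds the Proximal viewpoint and the one just above it passed as well; the one just below it, starting at 111610001, did not. In chr9:111620001-111630000, which holds it, the Distal level was 44.0 and 55.4 per 10000 in G1, 105 and 82.8 in S1, 80.6 and 73.5 in S2, 78.7 and 62.6 in S3, 56.4 and 62.1 in S4, 64.2 and 74.4 in S5, and 69.0 and 39.3 in S6. The S1 libraries were the highest and the G1 libraries among the lowest, and early and late S overlapped. Early S was higher than late S, by a log2 ratio of 0.41 ± 0.13 (limma, adjusted p = 0.0249), and S1 exceeded G1 by 0.90 ± 0.23 (limma, adjusted p = 0.0129).

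In the neighbouring chr9:111630001-111640000 the Distal level was 130 and 108 per 10000 in G1, 104 to 126 in early S, 96.2 and 111 in S4, 107 and 97.0 in S5, and 62.5 and 79.6 in S6. Both S6 libraries lay below every other library. The log2 change was 0.37 ± 0.11 for early against late S (limma, adjusted p = 0.00842) and -0.74 ± 0.18 for S6 against G1 (limma, adjusted p = 0.00264). The reverse view, from Proximal to chr9:111520001-111530000, which holds the Distal viewpoint, gave 79.8 ± 6.72 per 10000 in G1 (n = 2), 81.2 ± 4.36 in early S and 68.2 ± 17.6 in late S (n = 6 each), and did not pass.

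Of the 9 Distal calls, 4 held when any 1 library was left out, in the windows starting at 111480001, 111570001, 111590001 and 111630001. The window at 111490001 kept its call in 4 of 14 such fits, with an adjusted p of up to 0.339 without Distal S6 replicate 1, and those at the lower end and at 111620001 in 8 of 14, with up to 0.156 without Distal S5 replicate 1 and 0.205 without Distal S6 replicate 2. Those at 111580001 and 111470001 kept it in 10 and 12 of 14, with up to 0.170 without Distal S5 replicate 1 and 0.0816 without Distal S3 replicate 2. Without Distal S5 replicate 1, 5 of the 9 were called. Limma with a single prior spread for all windows called none, and 1 was called by the quasi-Poisson model.

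Among other windows, the window from 111.55 Mb, centred 69.9 kb below Proximal, was the only one without overlap from that viewpoint, at 99.8 to 138 per 10000 in early and 60.9 to 94.5 in late S. It did not pass over all windows (log2 change 0.46 ± 0.15 by limma, unadjusted p = 0.00276). Non-overlap of early and late S was found in 3 Distal windows, those starting at 111570001, 111580001 and 111590001, and in none from Outside.

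**Figure D5:**
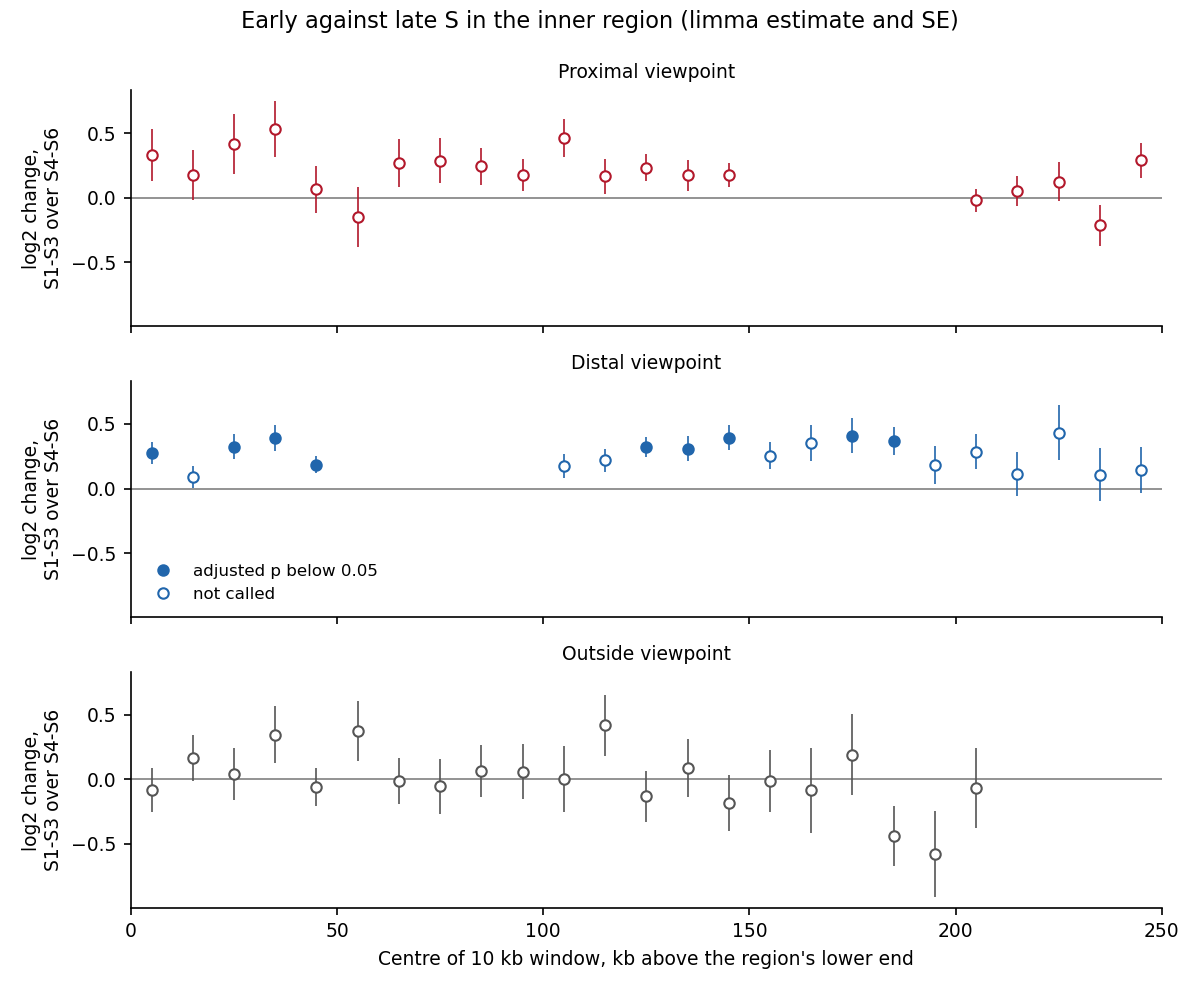
Log2 change of early over late S (y axis) for each tested 10 kb window of the inner region against its distance from the region's lower end (x axis, kb), with the SE from limma as bars; filled points passed the adjusted threshold of 0.05. All 9 filled points are Distal, and the lowest changes, -0.58 and -0.44, are the Outside windows starting at 111640001 and 111630001, neither of which passed.

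A test of any difference over the 7 fractions called 7 of the 20 Distal region windows, where 23.6% of all Distal windows passed. They start at the region's lower end and at 111480001, 111490001, 111570001, 111590001, 111620001 and 111630001, all among the 9 above, with adjusted p-values from limma of 0.00239 to 0.0456. Each of these calls was lost without at least 1 library, the window at 111490001 in 8 of 14 such fits, and without Distal S5 replicate 1 only 4 were called; the count also moved by more than 1.5 times without Distal S6 replicate 1. From Proximal none passed, where 7.65% of all windows did and 4 of the region had an unadjusted p below 0.05, and from Outside none, where 0.546% did and no region window had such a p.

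Single S fractions against G1 gave few calls in the region. From each inner viewpoint 20 region windows were tested in each of the 6 fractions, and 21 from Outside. Summed over the fractions, these tests gave 3 calls from Proximal, where 4.74% of all such tests passed. They gave 5 from Distal, where 8.2% passed, and none from Outside, where 0.82% passed. The Proximal calls, named here because they were few, were chr9:111470001-111480000 in S3 and the window starting at 111590001 in S4 and S5. The first had 34.2 and 19.2 contacts per 10000 in G1 and 68.1 and 64.2 in S3 (log2 change 1.33 ± 0.40, limma, adjusted p = 0.0342). The second, centred 29.9 kb from the viewpoint, had 294 and 369 in G1, 235 and 243 in S4 and 240 and 202 in S5, and changed by -0.46 ± 0.16 in S4 and -0.58 ± 0.16 in S5 (limma, adjusted p = 0.0472 and 0.0225).

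The 5 Distal calls were chr9:111620001-111630000 in S1, given above, the last window, starting at 111690001, in S3, chr9:111580001-111590000 in S5, and the windows starting at 111490001 and 111630001 in S6. The S3 window had 27.4 and 19.3 per 10000 in G1 and 37.5 and 51.2 in S3 (log2 change 0.90 ± 0.31, limma, adjusted p = 0.0454). The window at 111580001 changed by -0.49 ± 0.17 in S5 (adjusted p = 0.0456) and that at 111490001 by -0.38 ± 0.12 in S6 (limma, adjusted p = 0.0254). Over all 20 Distal windows of the region the median log2 change against G1 was -0.05 in S1 and 0.06 in S3, with 9 and 12 windows above 0, and -0.18 in S5 and -0.33 in S6, with 4 and 3 above 0. The S1 call was lost without Distal G1 replicate 1 or S1 replicate 1. The number of calls in S3, 1, ranged from 0 to 2 and differed in 12 of the 14 fits that left out a library, that in S5 likewise in 10, and that in S6, 2, fell as low as 0 and differed in 6. The number of Proximal calls in S3, S4 and S5 differed in 4, 7 and 4 such fits. The 5 calls became 2 without Distal G1 replicate 1 or 2, S2 replicate 1 or S5 replicate 1, and 3 without S2 replicate 2 or S3 replicate 1. The 3 Proximal calls became 0 without Proximal G1 replicate 2 and 1 without S2 replicate 2 or S5 replicate 1.

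Whether the viewpoints differ was tested on the windows measured from both. For S against G1 no region window differed in 15 windows of Proximal against Distal, 16 of Proximal against Outside or 16 of Distal against Outside, where 0.599%, 0.926% and 0.581% of all shared windows passed in limma; 2, 2 and 1 region windows had an unadjusted p below 0.05. For early against late S, a contrast added after the data were seen, Distal differed from Outside in 1 region window, chr9:111630001-111640000, where 1.74% of all shared windows passed. Proximal did not differ from Distal or from Outside in any window of the region or beyond it (0% and 0%, and no region window had an unadjusted p below 0.05). In that window early S was higher than late S by 0.37 from Distal and lower by a log2 change of -0.44 from Outside, a difference of 0.81 ± 0.22 (limma, adjusted p = 0.0451). The Outside libraries had 15.7 to 28.7 contacts per 10000 in early and 21.0 to 36.6 in late S, which overlap.

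The single positions behind these windows were many and each rare. Contacts fell on 1962 distinct positions from Proximal, 2664 from Distal and 1436 from Outside, 3820 in all. Positions at most 6 bases apart formed 731 clusters with a median width of 7 bases and a median gap of 199 bases, and 97.1% of positions had such a neighbour. The 10 clusters with the most contacts held 8.40% of Proximal's, 8.24% of Distal's and 7.94% of Outside's contacts in the region.

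The viewpoints shared part of the places they read. Over the part measured from both, 1124 positions were shared by Proximal and Distal, 69.2% of Proximal's and 51.6% of Distal's. Proximal and Outside shared 688, 35.1% of Proximal's and 56.3% of Outside's, and 930 were shared by Distal and Outside, 34.9% of Distal's and 79.4% of Outside's. Few positions were found in every library of a viewpoint, namely 64 from Proximal, 124 from Distal and 1 from Outside, while 817, 826 and 522 were found in a single library. The number of distinct positions did not follow the share of local contacts: the Distal libraries averaged 907.5 such positions in G1, 1117 in S3 and 909.5 in S6, with 2.21, 2.40 and 2.27 contacts per position, where the shares were 24.0%, 25.2% and 19.5%.

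The 3 leading positions per viewpoint show how thin a single position is. From Proximal they were chr9 positions 111603365, 111646674 and 111597724, with 161, 158 and 157 contacts over 14 libraries, at 21.5 kb below, 21.8 kb above and 27.2 kb below the viewpoint. Position 111597724 had 9.76 and 35.1 contacts per 10000 in the G1 libraries, and 9.18 to 32.2 in early and 4.81 to 14.7 in late S, and the G1 libraries lay farther apart than the early or the late ones. From Distal the leading positions were 111497593, 111498845 and 111547669 with 145, 143 and 136 contacts, and position 111497593 had 4.29 to 17.1 per 10000 in early and 5.55 to 14.6 in late S.

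From Outside the leading positions were 111499639, 111461730 and 111499345 with 67, 51 and 47 contacts. They lie in the windows starting at 111490001 and 111460001, which were also the 2 highest windows from that viewpoint in G1. Position 111499639 had 4.61 and 9.17 per 10000 in G1, 1.02 to 9.38 in early and 0.947 to 9.38 in late S. The limma test of single positions called none of the region's from Distal or Outside, for S against G1, early against late S, the 7 fractions or any single fraction. From Proximal it called position 111602039 over the 7 fractions (limma, adjusted p = 0.000886). Few positions held enough contacts for this test. The leading Outside position, with 67 contacts over 14 libraries, lies below the mean of 10 per library required of windows. The absence of calls therefore does not show that single positions were unchanged.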

How the data were processed

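Each library was deposited by the authors as a list of chromosome, start and end per contact, per the file headers, with no value column and 16350 lines in every library, so the original depth is unknown. The submitters' processing notes name hg19, cutadapt and bedtools; aligner and versions: not given in the sources used here. Lines were not merged by position, because molecular barcodes were part of the protocol and the lists do not carry them.

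Lines in the inner region, outside 20 kb of the own viewpoint, were counted as a share of local lines (up to 2 Mb) and in windows of 10 kb. Shares and log2 ratios were compared with two-sided exact permutation tests, or 100000 resamples of F for the 7 fractions, adjusted over 19 measures by Benjamini-Hochberg. Windows averaging 10 lines or more per library were scaled to the mean local total of the viewpoint and tested with limma 3.58.1 (lmFit and eBayes with a trend, R 4.3.3) on log2(scaled lines + pseudocount), with pseudocounts of 0.891, 0.921 and 0.944 lines for Proximal, Distal and Outside, which understates the change of low windows. The script was tested on simulated data. Other genes of the region are not reported here. Python 3.11.15, numpy 2.4.6, pandas 2.3.3 and scipy 1.17.1 were used.

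Named windows were those past the threshold, those highest and lowest in G1, those holding another viewpoint, and the 3 leading positions per viewpoint; windows standing above their neighbours, those called in single fractions and those without overlap were named after their values were seen. The members, stretches and tests were chosen with earlier results of these data known. Replicates of a fraction differed by more than sampling noise (chi-square per degree of freedom 1.29 to 3.27 over 21 groups), so none was merged.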

Additional observations from a re-analysis of the deposited data

Results flagged for a closer look

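In the window chr9:111630001-111640000, next to the Proximal viewpoint, the change between early and late S differed between the Distal and the Outside viewpoint. The difference of the log2 changes was 0.81 ± 0.22 (SE; limma, adjusted p = 0.0451), with early S higher from Distal and lower from Outside. The Outside change alone did not pass (log2 change -0.44, limma, adjusted p = 0.612). The contrast was chosen after seeing the data.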

How the results depend on the processing

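Of 861 alternative values for 30 main results, 785 kept their direction and side of the threshold, or a count within 1.5 times, and none reversed. With all lines as the denominator, early over late S was 2.11 points from Distal and 1.58 from Proximal (neither passed) and 3 stretches passed in place of 8. On distinct positions the Proximal difference was 1.33 (not passed), 4 stretches and 1 ratio passed. Over the 7 fractions the Proximal share passed in a 1 Mb zone (adjusted p = 0.0240, permutation test).

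For windows called from Distal between early and late S, 9 became 3 with all lines, 3 at 5 kb, 1 with the quasi-Poisson model, and 0 for single positions or without the trend. Over the 7 fractions, 7 became 2 at 5 kb, 4 without the filter, and 0 for single positions, the quasi-Poisson model or no trend. Summed over single fractions, 5 became 22 with all lines, 8 on distinct positions, 3 without the filter, and 0 for single positions, the quasi-Poisson model or no trend. For Distal S against G1, 0 became 6 with all lines and 1 at 5 kb or on distinct positions. Few single positions held enough contacts to be tested, so a 0 for them carries little weight.

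From Proximal, S against G1 gave 1 in place of 0 with all lines, at 5 kb, at 25 kb or without the filter, and 3 with a pseudocount of 5 lines. The 7 fractions gave 1 with all lines, at 25 kb or for single positions. The sum over fractions, 3, became 6 with all lines, 1 at 5 kb, without the filter or with the quasi-Poisson model, and 0 without the trend. Proximal against Outside differed in 1 window at 25 kb, and Distal against Outside in 1 for early against late S. The cause of these shifts was not tested.

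Same-numbered libraries had window deviations that correlated between -0.17 and 0.17, so the numbers were not taken as pairs, although replicate 2 had the higher region share in all 7 fractions from Proximal, in 6 from Distal and in 4 from Outside. With the replicate number as a block the Proximal share over the 7 fractions had an adjusted permutation p of 0.0199, and the Proximal window counts were 2 for S against G1, 1 for the 7 fractions and 10 summed over fractions; over the 7 fractions the stretch between the viewpoints then passed from Distal, and the stretch around Distal no longer did from Proximal.

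Leaving out single libraries gave 5 to 9 Distal calls between early and late S, 4 to 8 over the 7 fractions, 0 to 1 for S against G1 and 2 to 7 summed over fractions. From Proximal it gave 0 to 2 for S against G1 and 0 to 4 summed over fractions, and adjusted p-values of the 7 fractions from 0.0221 to 0.164 by permutation. For S against G1 a call appeared without Proximal G1 replicate 1, S1 replicate 1, S2 replicate 1, S3 replicate 2 or either replicate of S5 or S6, and without Distal S1 replicate 2 or S6 replicate 2. It gave 1 to 2 ratios for early against late S and 3 to 6 stretches over the 7 fractions. Single positions and the quasi-Poisson model were not run for differences between viewpoints.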
